A study of Mus musculus with 2 samples.

Results

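Carbohydrate-binding receptors of lung macrophages were described in 2 RNA-seq libraries: the C-type lectins, the Siglecs and the galectins, chosen by gene symbol (Clec followed by a digit, Cd209, Siglec, Lgals followed by a digit, and Mgl2). The table of 38293 genes held 56 such genes, and 2 pseudogene symbols (Lgals1-ps1 and Lgals1-ps2) were left out. The macrophages were sorted from lungs of 8-week-old C57BL/6 mice, 7 days after each mouse had received 625 third-stage larvae of Nippostrongylus brasiliensis, a roundworm that passes through the lung. One group was wild type (WT) and the other, Axl-/-Mertk-/- (the double mutant), is labelled as lacking Axl and Mertk, receptor kinases that bind apoptotic cells through bridging proteins. Both groups were infected and there was 1 library of each. The labels do not say how many mice a library holds, nor which part of either gene was deleted. The sort took leukocytes (CD45) that were high for CD11c, positive for Siglec-F and low for CD11b. Siglec-F, encoded by the member Siglecf, is therefore one of the sort markers, and its level is no finding.

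Lectin receptors read sugars on microbes, worms and host cells. Many C-type lectins bind sugars with the help of calcium. Those such as Dectin-1 carry or recruit an ITAM-type motif that activates the kinase Syk, whereas others carry an ITIM that recruits phosphatases. Siglecs bind sialic acid, which marks host cells, and most of them inhibit. Galectins are soluble proteins that bind galactose-containing sugars inside and outside the cell. In alveolar macrophages, Siglec-F and Dectin-1 are well-known surface proteins, and the galactose-type lectins are induced in macrophages by IL-4.

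Reads assigned to genes numbered 15282882 for WT and 15519680 for the double mutant. Levels are given as normalised reads, the unit of the deposited table, where a single read counts as 1.21 in WT and as 1.18 in the double mutant. Axl was at 24789.8 normalised reads in WT and 3851 in the double mutant, or 15.5% of WT (exact 95% interval, 15.0% to 16.1%). Mertk was at 6484 and 2842, or 43.8% (41.8% to 46.0%), and reads from parts of a gene that were not deleted would remain. Ratios are of the double mutant to WT, with the bounds of the exact 95% interval beside them. With 1 library per genotype there is no replicate check, no test was made, and all intervals are Clopper-Pearson intervals that cover counting error only. Bulk RNA cannot tell fewer cells of a type from less RNA per cell. Markers of alveolar macrophages other than the 56 members were present for 11 of 11 genes, with a summed level of 1295120 normalised reads in WT and 1124180 for the double mutant, and 9 of the 11 were lower in the latter. Chil3 alone gave 1156230 and 994755 of these sums. Monocyte markers summed to 15094 and 18653, with 7 of 8 higher in the double mutant, and markers of interstitial or monocyte-derived macrophages to 54063 and 67184, with 6 of 10 higher. Most of the monocyte sums came from Nr4a1 (8729 and 10654.5) and Ccr2 (4823 and 6120.5). The highest ratios of the monocyte list were those of Ly6c2 (62.8 and 140, ratio 2.24) and Plac8 (144 and 296, ratio 2.06). Apoe gave 28900.3 and 40081 of the interstitial sums. In that list Cx3cr1 (229 and 394, ratio 1.72) was higher, and Folr2 (ratio 0.492) and Cd163 (ratio 0.705) were lower. None of the markers in these 3 lists was at 0 in both libraries. The part of these differences in the results below was not tested.

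The promoters of 3 pairs of members are shown because the members of each pair lie close together or are partners, and their levels or ratios differ. The pairs are Clec7a with Clec9a (on chromosome 6, with Clec1a between them), Clec4d with Clec4e (adjacent on opposite strands), and Lgals3 with its binding protein Lgals3bp. Each window runs from 250 bases before to 50 after the RefSeq start (GRCm38.p6), 5′ to 3′ on the strand of the gene. RefSeq gave 2 windows for Clec7a. Only the first window listed for a gene was used, here and in the motif counts. The Lgals3 start used by RefSeq lies inside the longer GENCODE gene, and the Clec9a window lies inside the gene Clec1b. The windows are chr6:129472730-129473029 (minus strand) for Clec7a, chr6:129408612-129408911 (plus strand) for Clec9a, chr6:123261857-123262156 (plus strand) for Clec4d, chr6:123289822-123290121 (minus strand) for Clec4e, chr14:47373610-47373909 (plus strand) for Lgals3 and chr11:118401910-118402209 (minus strand) for Lgals3bp. Capitals mark any match, on either strand, to 4 motifs: GAGGAA (the core bound by PU.1, the myeloid master regulator), TGANTCA (AP-1), the STAT6 motif (TTC and GAA, 4 bases apart, bound after IL-4 signalling) and the interferon-response motif (GAAA and GAAA, 2 bases apart).
Clec7a: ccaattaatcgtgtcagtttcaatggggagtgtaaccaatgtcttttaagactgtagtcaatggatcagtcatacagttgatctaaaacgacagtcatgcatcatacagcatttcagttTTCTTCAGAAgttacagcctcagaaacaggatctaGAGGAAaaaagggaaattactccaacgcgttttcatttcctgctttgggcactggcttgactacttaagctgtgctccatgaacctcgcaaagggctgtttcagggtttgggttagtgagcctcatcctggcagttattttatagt
Clec9a: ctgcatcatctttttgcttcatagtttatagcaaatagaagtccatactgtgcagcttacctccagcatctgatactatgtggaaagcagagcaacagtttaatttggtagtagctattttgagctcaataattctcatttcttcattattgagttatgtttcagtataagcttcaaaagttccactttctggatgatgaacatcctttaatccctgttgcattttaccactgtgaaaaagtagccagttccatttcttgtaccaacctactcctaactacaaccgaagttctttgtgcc
Clec4d: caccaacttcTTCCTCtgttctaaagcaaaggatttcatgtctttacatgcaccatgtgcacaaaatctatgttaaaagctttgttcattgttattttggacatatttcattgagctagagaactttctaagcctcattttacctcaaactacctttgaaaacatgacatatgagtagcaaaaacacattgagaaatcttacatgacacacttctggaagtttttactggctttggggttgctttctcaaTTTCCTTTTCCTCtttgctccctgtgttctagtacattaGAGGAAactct
Clec4e: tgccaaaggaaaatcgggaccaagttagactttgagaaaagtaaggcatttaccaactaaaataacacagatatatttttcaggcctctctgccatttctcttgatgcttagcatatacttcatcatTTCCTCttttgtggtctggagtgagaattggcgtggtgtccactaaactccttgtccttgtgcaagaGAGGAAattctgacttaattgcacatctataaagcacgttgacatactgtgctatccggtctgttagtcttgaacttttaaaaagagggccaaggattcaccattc
Lgals3: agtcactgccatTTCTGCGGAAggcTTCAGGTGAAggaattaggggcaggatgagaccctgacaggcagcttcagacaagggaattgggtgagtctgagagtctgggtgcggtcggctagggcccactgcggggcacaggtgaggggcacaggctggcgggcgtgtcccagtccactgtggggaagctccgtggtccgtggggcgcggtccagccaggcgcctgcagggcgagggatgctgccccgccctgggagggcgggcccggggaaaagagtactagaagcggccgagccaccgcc
Lgals3bp: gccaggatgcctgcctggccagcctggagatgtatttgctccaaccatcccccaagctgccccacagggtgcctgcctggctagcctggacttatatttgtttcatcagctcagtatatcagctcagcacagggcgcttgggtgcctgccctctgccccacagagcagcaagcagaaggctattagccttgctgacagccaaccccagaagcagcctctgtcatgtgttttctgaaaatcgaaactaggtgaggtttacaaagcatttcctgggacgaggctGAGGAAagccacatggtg
GAGGAA was found in the Clec7a window 96 bases upstream of the start, in the Clec4e window 56 and 123 bases upstream, and 3 times in the Clec4d window. The Clec4d window also held the interferon-response motif on the opposite strand at the start, overlapping one of those GAGGAA matches. The STAT6 motif was found once for Clec7a and at 2 places for Lgals3, and the Lgals3bp window held 1 GAGGAA. The Clec9a window held none of the 4 motifs, which says only that these letters are not in this window. Of 56 members 44 had a promoter in the RefSeq table. GAGGAA was present in 23 of these 44, against 28.3% of the 27025 promoters in the table. TGANTCA was present in 8 (7.93% of all promoters), the STAT6 motif in 6 (6.99%) and the interferon-response motif in 4 (3.49%). A match is a description of letters and not a binding site.

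The 56 members were dominated by 2 genes and were very similar in summed amount in both libraries. All 56 members together took 0.752% of assigned reads in WT (exact 95% interval, 0.748% to 0.757%) and 0.751% in the double mutant (0.747% to 0.756%). Clec7a and Lgals3 gave 59.1% of the members' reads in WT and 59.8% in the double mutant. Lectins under other names are not in these shares. Among them, Mrc1 was at 43505.6 normalised reads in WT and 39743.7 in the double mutant (ratio 0.914, 0.900 to 0.927). A mean of at least 20 normalised reads over both libraries, the minimum for a gene to be called measured, was reached by 36 members. A further 14 had at least 1 read, and 6 had none in either library.

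Of the 36 measured members, 0 reached 1.5-fold upward and 0 reached it downward in the double mutant, on the scale of the log2 ratio with 10 added to both values. Over all 11795 measured genes, 1.74% passed this fold upward, 1.33% downward and 3.07% either way. The ratios without the added 10 ran from 0.745 for Cd209c to 1.36 for Clec1a. Members stood on either side of WT, 17 above and 19 below, with a median log2 ratio of -0.013, against -0.0047 over all measured genes. The median size of the log2 ratio, whatever its sign, was 0.13 for members and 0.10 for all measured genes. The counting interval of the ratio lay above 1 for 7 members, against 10.1% of all measured genes, and below 1 for 8, against 11.4%. Abundant genes have narrow intervals. Among the 16 members with a mean of at least 1000, the interval lay above 1 for 3 and below 1 for 7, where 15.8% and 19.8% of all genes of that level did so. Genes of that level passed 1.5-fold upward in 0.114% of cases, downward in 0.257% and either way in 0.371%. Such an interval compares these 2 libraries and not the genotypes.

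**Figure D1:**
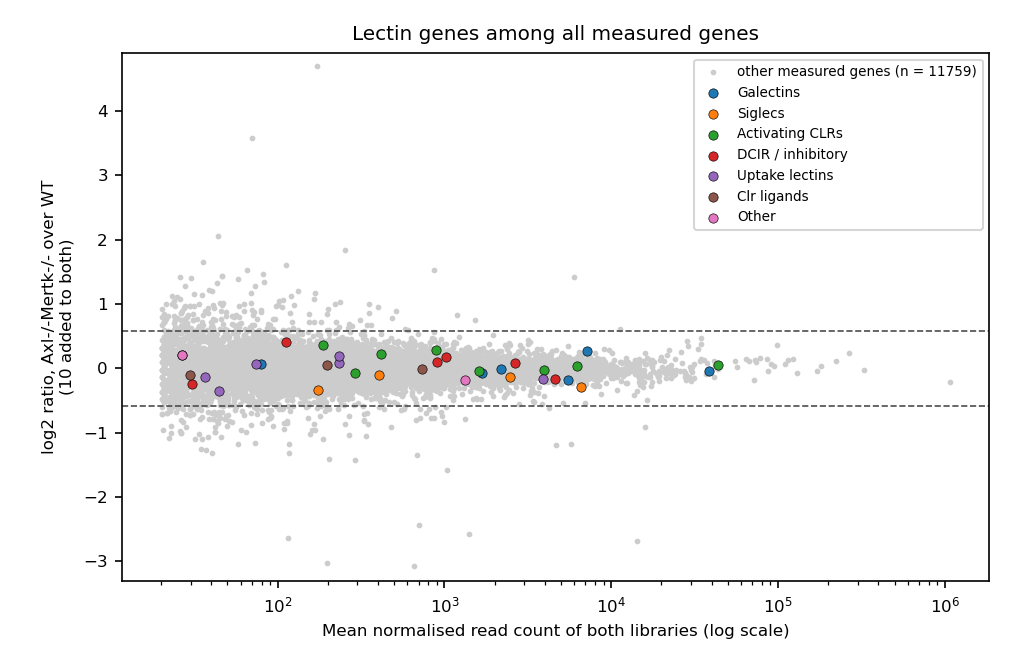
Log2 ratio of Axl-/-Mertk-/- over WT, with 10 added to both, against the mean normalised read count of both libraries (log scale) for all measured genes (grey) and the 36 measured lectin genes (coloured by role). Dashed lines mark 1.5-fold, and every lectin gene lies between them.

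Levels of different genes were compared per kilobase of annotated exon. Lgals3, the main galectin of macrophages, was the highest of the 56 members on this scale. It was at 20937 normalised reads per kilobase in WT and 20361 in the double mutant. Clec7a, which encodes Dectin-1, the receptor for fungal beta-glucan, followed at 16315 and 16868. Then came Lgals1 (6478 and 5713 normalised reads per kilobase), Clec4n (4330.2 and 4463), Clec4a3 (3656 and 3274), Lgals3bp (2294 and 2754) and Mgl2 (1965 and 1749.8). The order of these first 7 was the same in both libraries. Behind them Siglec1 was at 1009.8 in WT and 826 in the double mutant, while Siglecf was at 920 and 841. Clec4a2 was at 879 and 931, so that Siglec1 led these 3 in WT and Clec4a2 led them in the double mutant. They lay within a narrow band, and there is no spread between animals to rank them by.

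**Figure D2:**
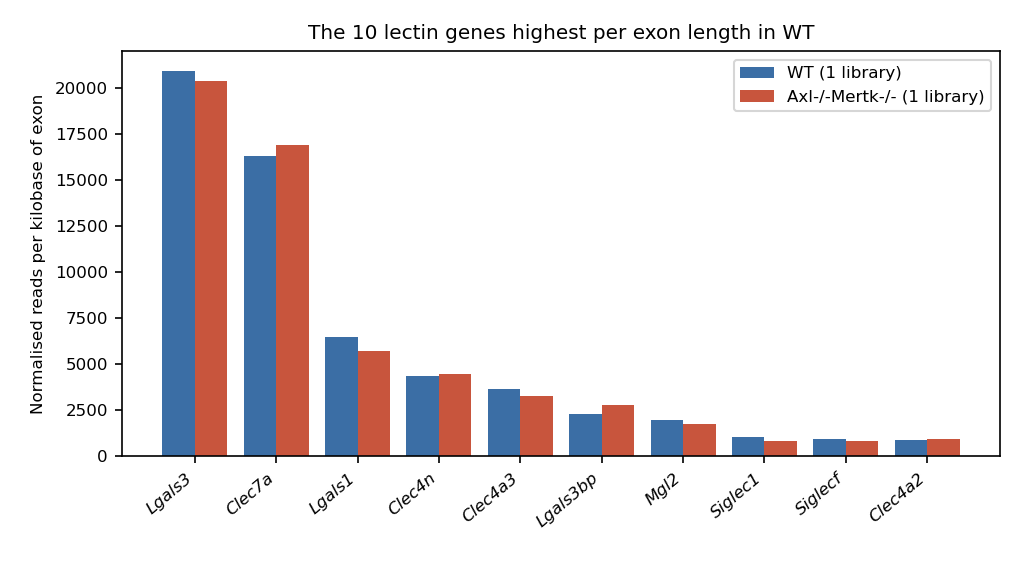
Normalised reads per kilobase of annotated exon for the 10 lectin genes that were highest in WT, with 1 bar per library. Lgals3 and Clec7a stand above the rest in both libraries, and no error bar is drawn because each bar is 1 library.

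Galectins were alike in the 2 libraries except for a lower Lgals1 and a higher galectin-3 binding protein. Lgals3 (GRCm38 chromosome 14, 47367751 to 47386160), which acts in uptake and at damaged membranes, was at 38900.2 normalised reads in WT and 37830.2 in the double mutant. Its ratio was 0.972 (0.958 to 0.988), so the 2 libraries differed by little at high precision. Lgals1, a galectin that dampens T cell responses, was at 5849.6 and 5158 (ratio 0.882, 0.846 to 0.919). Lgals3bp, a secreted glycoprotein that binds galectin-3 and is not itself a galectin (chromosome 11, 118392751 to 118402092), was at 6531 and 7842. It had the highest ratio of the group, 1.20 (1.16 to 1.24). The level of Lgals3 over Lgals3bp per kilobase was 9.13 in WT and 7.39 in the double mutant. Lgals8, which marks damaged endosomes, was at 2194 and 2172, and Lgals9, a ligand of TIM-3, at 1713 and 1633, and both intervals included 1. Exons of Lgals8 overlap those of Heatr1 on the opposite strand by 155 bases, and since the counting strand is not known its reads are uncertain. Lgals4, an epithelial galectin, was at 77.2 and 81.4, while lung epithelial markers other than the 56 members summed to 10184.6 and 8879. The epithelial list holds Cdh1, which gave 6692 of that sum in WT and 5916 in the double mutant, and no marker of the list was at 0. Over the 6 measured members of the group, 2 were above WT and 4 below, with a median log2 ratio of -0.027.

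All 4 measured Siglecs picked by the naming rule had lower values in the double mutant, and all 4 lie within 20 Mb of one of the deleted genes. Over all 11795 measured genes, 6040 were below WT, as were 297 of the 554 within 20 Mb of Axl or Mertk. Siglecs with other symbols are given in the next paragraph, and Cd33 and Cd22 among them were above WT. Siglec1, which encodes sialoadhesin, a sialic acid receptor of tissue macrophages (chromosome 2, 131069220 to 131086765), was at 7213 normalised reads in WT and 5903 in the double mutant. Its ratio of 0.818 (0.788 to 0.850) was the lowest among members with a mean of at least 1000, and it lies 2.27 Mb from Mertk. Siglecf, the sort marker, was at 2566 and 2347 (ratio 0.915, 0.860 to 0.973). Eosinophils carry Siglec-F too, and eosinophil markers other than the 56 members summed to 1452 and 894, with 5 of 5 measured genes lower and none of the 7 listed at 0 in both libraries. Alox15 gave 1213 and 724 of these sums, while Prg2 had 20 and 17 reads and Epx 1 and 0. The part of eosinophils in the ratio of Siglecf was not tested. Siglece, an inhibitory receptor of myeloid cells, was at 419.98 and 389.5, and its interval included 1 (0.795 to 1.08). Siglecg, an inhibitory Siglec typical of B cells, was at 197 and 153 (ratio 0.780, 0.615 to 0.988). It is 98.4% identical to Gm29791 over 382 bases, so the assignment of its reads is uncertain. B cell markers other than the 56 members summed to 3462 and 3436, with 6 of 7 lower in the double mutant, and none was at 0. Cd22 made up most of that sum, and the part of B cells in the ratio of Siglecg was not tested. Siglecf, Siglecg and Siglece lie 17.6, 17.6 and 17.9 Mb from Axl on chromosome 7.

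Siglecs on chromosome 7 whose symbols fall outside the naming rule had ratios with intervals that included 1. Cd33 lies 17.7 Mb from Axl and was at 2221 and 2355 normalised reads (ratio 1.06, 0.995 to 1.13). Cd22, 5.08 Mb from Axl, was at 2983 and 3030.2 (ratio 1.02, 0.961 to 1.07), and Mag, 5.11 Mb from Axl, at 421 and 413 (ratio 0.981, 0.843 to 1.14). Of the 554 measured genes within 20 Mb of Axl or Mertk, 3.61% passed 1.5-fold downward, 2.71% upward and 6.32% either way. Their counting interval lay below 1 for 14.6%. For these neighbours of Axl and Mertk, the missing receptors and the flanking chromosome of the altered alleles cannot be told apart. Of the 5 measured members within 20 Mb, the only one that is not a Siglec was Lgals4, 3.05 Mb from Axl (ratio 1.05, 0.740 to 1.51). The 31 measured members elsewhere in the genome had a median log2 ratio of 0.044. Siglech, a marker of plasmacytoid dendritic cells, gave 14 reads in WT and 16 in the double mutant, and Siglec15, known from osteoclasts, had 2 and 1.

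**Figure D3:**
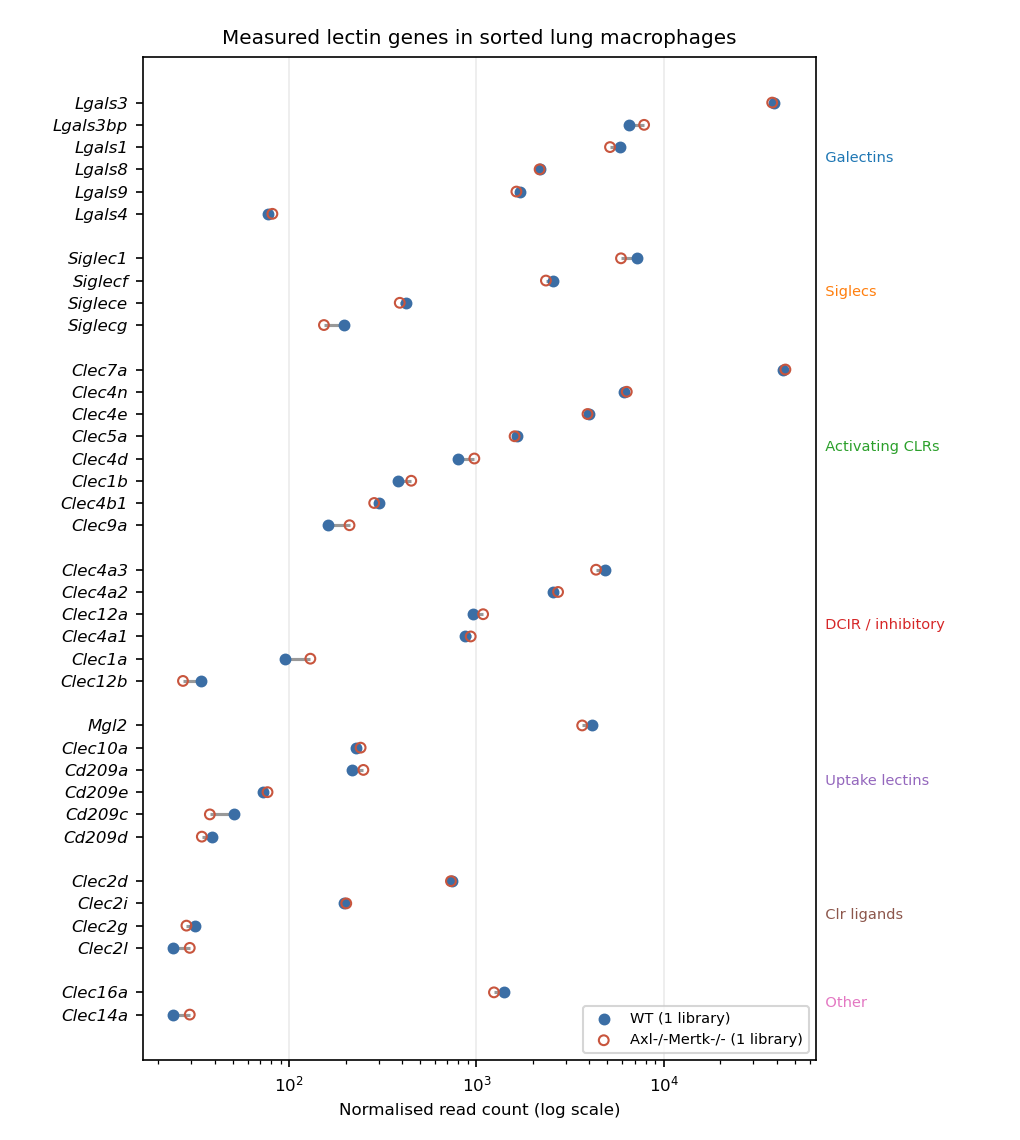
Normalised read count (log scale) of each measured lectin gene in the WT library (filled) and the double mutant (open), grouped by role. The grey lines join the values of a gene, and most pairs overlap on this scale.

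Activating C-type lectin receptors were led by Dectin-1 and were close to WT, with 4 of 8 measured members having an interval above 1 and 0 below, against 10.1% and 11.4% of all measured genes. Clec7a (chromosome 6, 129461591 to 129472779), which the annotation classes as a polymorphic pseudogene, was at 43039.7 normalised reads in WT and 44498 in the double mutant (ratio 1.03, 1.02 to 1.05). Clec4n, which encodes Dectin-2, the mannan receptor, was at 6149 and 6338 (ratio 1.03, 0.992 to 1.07). Clec4e, which encodes Mincle, a receptor for mycobacterial cord factor and for dead cells, was at 3996 and 3912 (ratio 0.979, 0.933 to 1.03). Clec5a, a receptor that signals through the adaptor DAP12, was at 1646 and 1597, with an interval that included 1.

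Furthest from 1 by its interval in this group was Clec4d, which encodes MCL, the partner of Mincle (chromosome 6, 123262111 to 123275265). It was at 795 normalised reads in WT and 974 in the double mutant (ratio 1.22, 1.10 to 1.36). That interval does not overlap the interval of its neighbour Clec4e, whose promoter is printed above. The pair was shown in part because its ratios differ, and how many other gene pairs have intervals apart was not counted. Per kilobase, Clec4d stood at 0.618 of the Clec4e level in WT and at 0.773 in the double mutant. Clec1b, which encodes CLEC-2, the podoplanin receptor of platelets and myeloid cells, was at 381 and 449 (ratio 1.18, 1.01 to 1.37). Platelet markers other than the 56 members summed to 431 and 472, with 2 of 3 measured genes higher in the double mutant. Pf4 gave 349.99 and 394 of these sums. Ppbp had 23 reads in WT and 16 in the double mutant, and Itga2b had 25 and 31. Treml1 had 16 reads in each library, Gp9 had 3 in each, and Gp1bb was at 0 in both. The part of platelets in the ratio of Clec1b was not tested. Clec9a, which encodes DNGR-1, a receptor for actin of dead cells on cross-presenting dendritic cells, was at 162 and 210.1 (ratio 1.30, 1.03 to 1.64). The exons of Clec1b and Clec9a share 184 bases on the same strand, so their reads are not fully separable. Clec4b1, or DCAR, was at 301 and 284, with an interval that included 1. It is 96.3% identical to Clec4a2 over 436 bases, and the split of reads between the 2 is uncertain.

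Clec9a was 1 of 3 dendritic cell markers among the members, beside Cd209a and Mgl2. Clec9a and Cd209a were above WT and Mgl2 below. Dendritic cell markers other than the 56 members summed to 2067 normalised reads in WT and 2298 in the double mutant, with 5 of 7 higher in the latter and none at 0. Ccr7 gave 828 and 876 of these sums and Batf3 gave 612 and 588, and both ratios had intervals that included 1. Xcr1, a defining marker of the cells that carry DNGR-1, was at 55.5 and 57.8, and Zbtb46 at 132 and 118. Those with the highest ratios in the list were Dpp4 at 167 and 282 (ratio 1.69, 1.37 to 2.10), Itgae at 139.99 and 208 (ratio 1.48, 1.17 to 1.89) and Flt3 at 134 and 169 (ratio 1.26, 0.977 to 1.63). The part of these cells in the ratio of Clec9a was not tested.

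C-type lectins of the DCIR family, with others grouped beside them, went both ways. Of 6 measured members 4 were above WT and 2 below, with a median log2 ratio of 0.092. The group was made by relation, not all its members carry an ITIM, and none was checked for one here. Clec4a3, a DCIR relative, was the highest of them at 4851.5 normalised reads in WT and 4345 in the double mutant (ratio 0.896, 0.856 to 0.937). Clec4a2, which encodes DCIR, was at 2572 and 2724 (ratio 1.06, 0.998 to 1.12). Clec4a1 was at 868 and 931, with an interval that included 1. Clec12a, an inhibitory receptor for uric acid crystals of dead cells, was at 963 and 1085 (ratio 1.13, 1.02 to 1.24). Clec12b was low, at 33.8 and 27.1.

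Clec1a, the receptor for fungal melanin (chromosome 6, 129424772 to 129452000), had the highest ratio of all measured members. It was at 95.3 normalised reads in WT and 130 in the double mutant (ratio 1.36, 1.01 to 1.84), and it is expressed by endothelium as well as myeloid cells. The endothelial lectin Clec14a was at 24.1 and 29.5, a ratio of 1.22 with a wide interval (0.652 to 2.32). Endothelial markers other than these summed to 769.97 and 1127 normalised reads, with 7 of 7 measured genes higher in the double mutant and none of the 9 listed at 0 in both libraries. Pecam1 gave 507 and 570.1 of these sums, with a ratio whose interval included 1 (0.985 to 1.29). Cdh5 was at 80.9 and 155 and Kdr at 31.4 and 66.1. The part of endothelial RNA in the ratio of Clec1a was not tested.

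Uptake lectins of the galactose and mannose type were led by Mgl2, an IL-4-induced receptor for N-acetylgalactosamine. Mgl2 (chromosome 11, 70130329 to 70137550) was at 4114 normalised reads in WT and 3664 in the double mutant (ratio 0.891, 0.848 to 0.935). Its neighbour Clec10a, which encodes MGL1, was far lower, at 227 and 241, with an interval that included 1 (0.866 to 1.30). Per kilobase Mgl2 stood 25.1 times above Clec10a in WT and 21.1 times in the double mutant. The 2 transcripts are 93.9% identical over 830 bases, so some reads may have been lost or split between them. Of the DC-SIGN relatives, Cd209a was at 217 and 249 (ratio 1.15, 0.935 to 1.41). Cd209e (72.4 and 76.7), Cd209c (50.7 and 37.8) and Cd209d (38.6 and 34.2) had lower levels than Cd209a, and their intervals included 1. Cd209c is 97.9% identical to Olfr1372-ps1 over 430 bases, so the assignment of its reads is uncertain. Cd209b, Cd209f and Cd209g were below the minimum, with 12, 9 and 3 reads in WT and 10, 5 and 1 in the double mutant. Over the 6 measured members of this group 3 were above WT and 3 below.

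**Figure D4:**
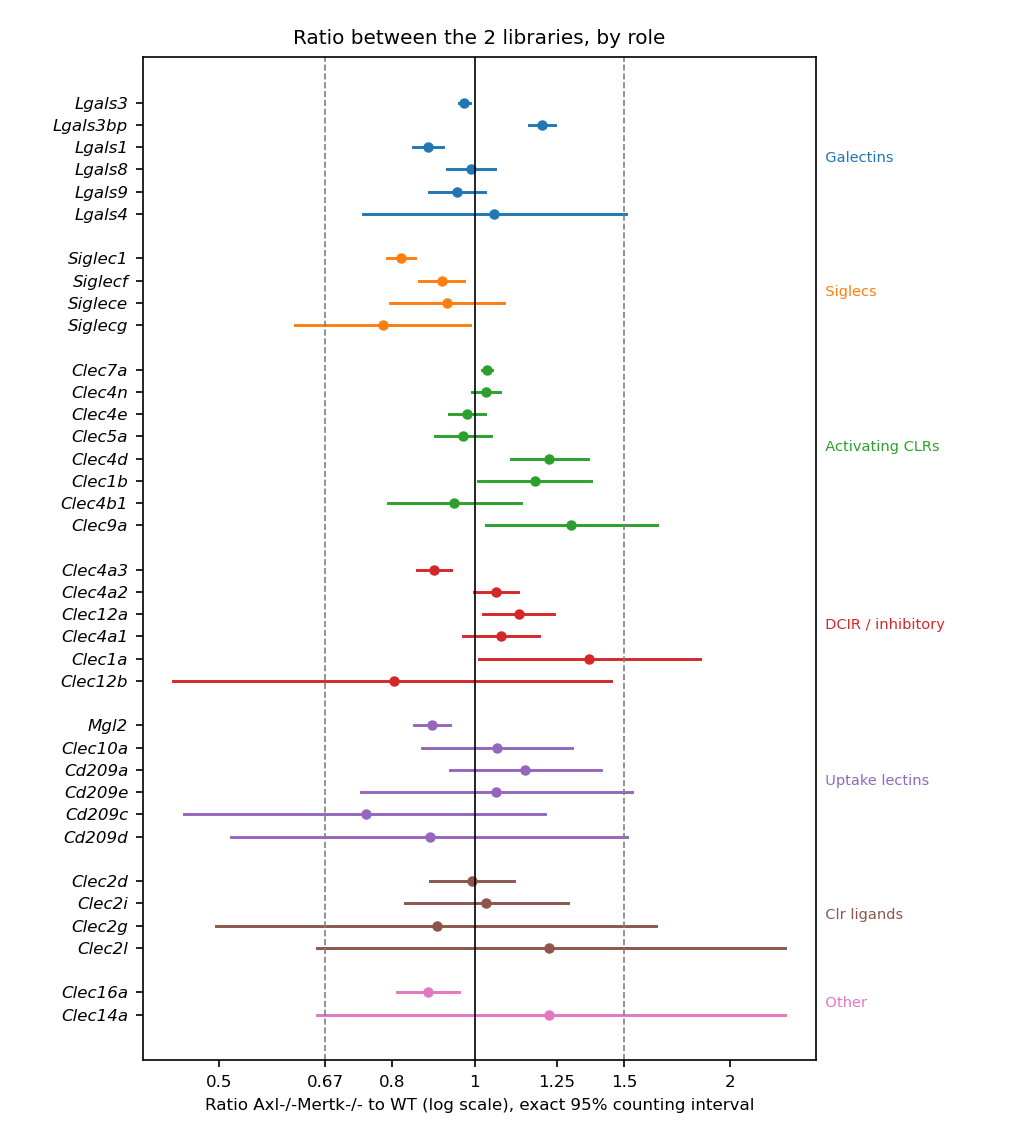
Ratio of Axl-/-Mertk-/- to WT (log scale) for each measured lectin gene with its exact 95% counting interval, grouped by role. Dashed lines mark 1.5-fold either way. The intervals of Lgals3bp (1.16 to 1.24) and Siglec1 (0.788 to 0.850) are narrow and lie apart from 1, and those of genes under 100 reads are wide.

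Clr proteins, encoded by genes of the Clec2 family, are lectin-like, and several of them are ligands of NK cell receptors of the NKR-P1 family. Clec2d, or Clr-b, was at 736 normalised reads in WT and 731 in the double mutant (ratio 0.993, 0.886 to 1.11). Clec2i was at 196 and 202, Clec2g at 31.4 and 28.3 and Clec2l at 24.1 and 29.5, and all 3 intervals included 1. Clec2l, grouped here by name, starts at base 38663069 of chromosome 6, apart from the other Clec2 genes. Clec2g is 91.1% identical to Clec2d over 676 bases and 90.3% identical to Clec2i over 2272, so the split of reads among these genes is uncertain. The receptor for Clr-b in the mouse is NKR-P1B, encoded by Klrb1b. Klrb1b was at 232 and 473 (ratio 2.04, 1.72 to 2.44), while the interval of the ligand gene Clec2d included 1. Markers of T, NK and innate lymphoid cells summed to 2218 and 2500.1 normalised reads, with 7 of 7 measured genes higher in the double mutant and none of the 12 listed at 0 in both libraries. Il7r gave 1889 and 2082 of these sums, and Cd3d had 6 and 7 reads. The part of these cells in the ratio of Klrb1b was not tested.

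Clec16a, a lectin in name that acts in autophagy, was at 1406 normalised reads in WT and 1239 in the double mutant (ratio 0.882, 0.810 to 0.959). Of the remaining members, Clec4a4 gave 6 WT and 8 double-mutant reads, Clec4b2 had 7 and 5, and Clec3b, or tetranectin, had 6 and 3. Clec11a had 6 and 1, and Clec4f, a lectin of liver Kupffer cells, had 4 and 0. Lgals7 had 2 in each library, Lgals12 1 in each, Clec2f 1 and 0, and Clec2h 0 and 1. None of these counts can show a difference at this depth. Clec18a, Clec2e, Clec2j, Clec3a, Clec4g and Lgals2 were without a read in either library, which allows for at most 3 reads, or 3.62 normalised reads in WT and 3.54 in the double mutant.

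A large part of the family sits in 3 groups of neighbouring genes on chromosome 6, which holds 25 of the 56 members. In the Dectin-1 cluster, 6 genes within 130 kb from Clec12a to Clec7a, the ratio was above 1 for 5 of 6. It was 1.13 for Clec12a, 0.803 for Clec12b, 1.18 for Clec1b, 1.30 for Clec9a, 1.36 for Clec1a and 1.03 for Clec7a. The intervals of these 5 lay above 1, and that of Clec12b included it. An interval above 1 was seen for 10.1% of all measured genes. It was seen for 15.8% of those with a mean of at least 1000, which Clec7a and Clec12a reach. Clec1b and Clec9a share 184 exon bases, so their 2 ratios are not fully separate. The median ratio was 1.15 in this cluster and 1.03 in the Dectin-2 cluster (9 genes within 368 kb from Clec4a1 to Clec4e, of which 7 were measured). In the Clr cluster 3 of 7 genes were measured, with a median ratio of 0.993. Clec7a, the most abundant gene of the Dectin-1 cluster, had the ratio closest to 1 there.

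**Figure D5:**
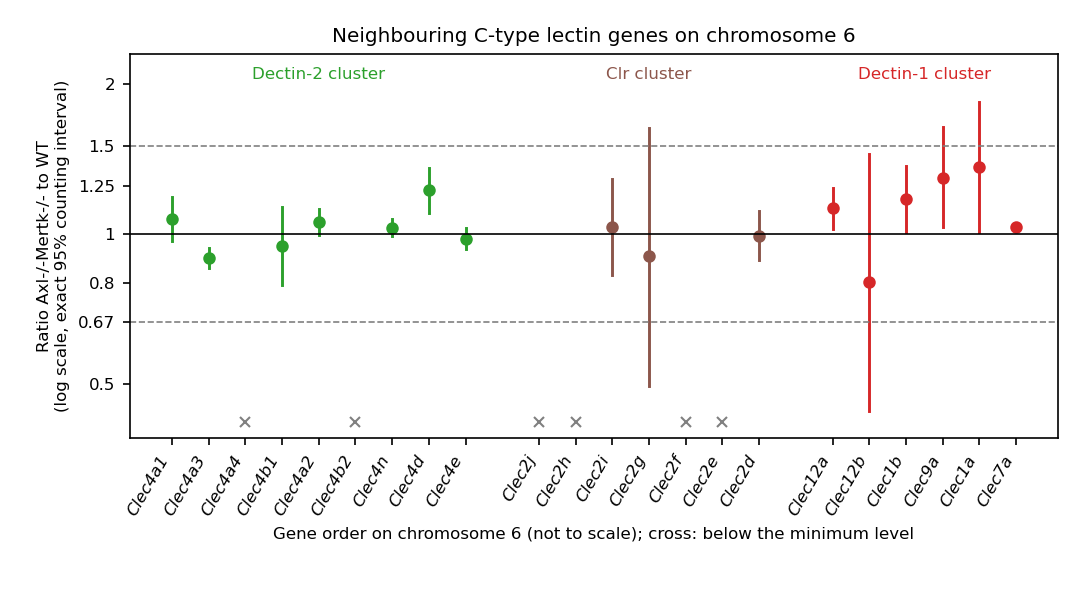
Ratio of Axl-/-Mertk-/- to WT (log scale) with its exact 95% counting interval for neighbouring lectin genes in their order on chromosome 6, in 3 clusters. Dashed lines mark 1.5-fold and crosses mark genes below the minimum level. Clec4d stands above its neighbours Clec4n and Clec4e, and Clec1a and Clec9a above Clec7a.

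The genes through which these receptors signal were measured for 25 of 25 members of a list of kinases, adaptors and phosphatases. Of these, 21 were above WT and 4 below in the double mutant, with a median log2 ratio of 0.091 and 0 past 1.5-fold either way. Over all measured genes 48.8% were above WT, with a median log2 ratio of -0.0047. Rasgrp1, a Ras activator, was at 708 and 981 normalised reads (ratio 1.38, 1.24 to 1.54). The kinase gene Src was at 625 and 812 (ratio 1.30, 1.16 to 1.46). The adaptor genes Tyrobp (DAP12) and Fcer1g were at 7805 and 8739 and at 7801 and 8584, ratios of 1.12 (1.08 to 1.16) and 1.10 (1.06 to 1.14). Syk itself was at 10337 and 10266 (ratio 0.993, 0.964 to 1.02), and Card9, which carries the signal to NF-kB, was at 1968 and 1897 (0.899 to 1.03). The lowest were Vav3 at a ratio of 0.886 and Nfatc2 at 0.918. The part in these ratios of the monocyte markers, which were also higher, was not tested.

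Genes that make the ligands were near WT. Of 22 measured genes of sialic acid synthesis, transfer and removal, 10 were above WT and 12 below, with a median log2 ratio of -0.02 and 0 past 1.5-fold. St3gal5, a sialyltransferase of gangliosides, had the highest ratio above the minimum for naming, at 1.43 (1.03 to 1.99), and Gne, the first enzyme of sialic acid synthesis, the lowest, at 0.837 (0.694 to 1.01). Of 16 measured genes of N-glycan branching and galactose addition, 7 were above and 9 below, from C1galt1 at 0.827 (0.727 to 0.940) to Mgat4a at 1.13 (1.05 to 1.22). Galectin partners were measured for 12 of 12 genes, 5 above and 7 below, with Tfrc lowest at 0.785 (0.723 to 0.852) and Lag3 highest at 1.07.

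Of 27 measured lectins and Siglecs under other names, 13 were above WT and 14 below, and 1.5-fold was passed by 1 upward and 3 downward, against 1.74% and 1.33% of all measured genes. Klrb1b was the one higher. The lower ones included Colec12, a scavenger receptor with a collectin domain, at 1167 and 727 normalised reads (ratio 0.623, 0.562 to 0.690), and Klrg2 at 80.9 and 44.9 (ratio 0.555, 0.362 to 0.838). The third, Fcer2a, the low-affinity IgE receptor CD23, gave 40 WT and 16 double-mutant reads and is also in the B cell list. The counting interval lay above 1 for 3 of the 27 and below 1 for 7, against 10.1% and 11.4% of all measured genes. Mrc1 (ratio 0.914), Ly75 (ratio 0.868) and Olr1 (ratio 0.905) were among the 7.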

How the data were processed

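Messenger RNA from sorted lung macrophages was sequenced as 1 library of WT and 1 of Axl-/-Mertk-/- mice, after selection with oligo-dT and with dUTP strand marking, per the labels' protocols. As judged from its values, the deposited signal is a normalised read count: the reads of each gene over a size factor for its library. The columns were matched to the libraries by the sample numbers in the labels. The submitters' processing notes name TopHat2, DESeq2 and GRCm38. Which program counted reads, and with which strand setting, is not given in the sources used here. Dividing by the value of 1 read gave whole reads for 100% of values (tolerance 1e-06).

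Members and gene lists were chosen with earlier results of these data known. With no residual degrees of freedom, the quasi-likelihood test of edgeR could not be fitted, and a rule of size (1.5-fold, pseudocount 10, mean of at least 20) was used. As the count comparison on recovered reads, the exact interval excluded 1 for 2540 of the 11795 measured genes. Named genes of the pathway lists were the 3 highest and 3 lowest ratios at a mean of at least 50. Tyrobp, Fcer1g, Syk, Cd22, Cd33, Mag, Fcer2a, Mrc1, Ly75, Olr1 and the named cell markers were chosen after their values had been seen. Some genes that this rule names are not reported here. Positions and exon lengths came from GENCODE M21 and promoters from RefSeq. Near copies were found with BLAST+ 2.17.0 (megablast, identity of at least 90%). The chromosome 6 clusters were drawn from gene positions. Other tools were Python 3.11.15, pandas 2.3.3, SciPy 1.17.1, matplotlib 3.10.9 and edgeR 4.0.16 (for TMM factors). Calculations were tested on simulated data. The labels name no molecular identifiers, so reads may not be independent molecules and intervals may be too narrow.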

Additional observations from a re-analysis of the deposited data

How the results depend on the processing

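The count of members at least 1.5-fold higher stayed at 0 under all 10 alternatives: pseudocounts of 1 and 50, no minimum mean, a mean of at least 100, 3 other scalings, and leaving out members near Axl or Mertk, members with near copies or markers of other cells. The count of lower members was 1 with no minimum mean, where Clec11a (6 reads and 1) passed, and 0 otherwise. The median log2 ratio ran from -0.035 to 0.046 and so had no stable sign: it was 0.0028 with median-of-ratios factors, 0.044 without members near Axl or Mertk and 0.046 without near copies. Among the 36 measured members the sign of the ratio changed only for Lgals8 and Clec2d, both with median-of-ratios factors. Intervals above 1 numbered 7 to 9 and below 1 stayed at 8 over the scalings, a check added after the data had been seen. No paired analysis was possible because each group has 1 library, which also means that none could be left out. Depth limits every member under about 100 normalised reads.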
